A study of Homo sapiens with 6 samples.

Results

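PHGDH, PSAT1, PSPH, SHMT1, SHMT2, MTHFD1, MTHFD2, MTHFD1L and ALDH1L2 are the genes of serine synthesis and of the one-carbon folate steps that follow it. They were taken by gene symbol from a listed set of 9 genes, out of 62710 genes in the deposited table, and all 9 were among the 16753 genes with enough counts to be tested. The libraries were made from HCT116, a human colon cancer cell line, to ask which transcripts differ in level when IGF2BP3, an RNA-binding protein that regulates mRNA stability and translation, is knocked down. Both groups carried a lentiviral vector and were selected with puromycin as stable lines. The sh-NC group (n = 3 libraries, genotype labelled negative control) carried a scrambled sequence, and the sh-IGF2BP3 group (n = 3 libraries) carried an shRNA against IGF2BP3. A single shRNA in a single cell line was sequenced, and nothing in the labels says that the libraries of a group came from separate cultures, so the p-values measure the spread between these libraries only.

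Serine is made from the glycolytic intermediate 3-phosphoglycerate by PHGDH, PSAT1 and PSPH in turn. SHMT1 in the cytosol and SHMT2 in mitochondria split serine into glycine and a one-carbon unit bound to folate. MTHFD2, MTHFD1L and ALDH1L2 carry these units through the mitochondrial folate steps and MTHFD1 through the cytosolic ones, and the units feed purine, thymidylate and methionine synthesis. In tumour cells the mitochondrial branch is known for supplying formate, and the stress-responsive transcription factor ATF4 is known to raise several of these genes.

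The libraries held 16146718 to 23576469 counts. IGF2BP3 itself was at 90.3, 84.1 and 70.3 CPM (its counts relative to the TMM-scaled total of the library) in the sh-NC libraries and at 60.2, 52.3 and 55.8 in the sh-IGF2BP3 libraries, with no overlap between the groups. Its log2 fold change was -0.54 (standard error, SE, 0.181), with an edgeR adjusted p of 0.126. After removal of each library's trends with GC content and gene length it was -0.22 (SE 0.185, edgeR adjusted p 0.680), and the groups then overlapped. HCT116's epithelial identity showed in EPCAM, CDH1, KRT8, KRT18, KRT19 and CDX2, which were all tested, while VIL1 was near 0. Summed CPM of the 7 epithelial markers ran from 2029 to 3702 in sh-NC libraries and from 3142 to 4175 in sh-IGF2BP3. Fibroblast markers summed to 28.2 to 48.0 and 29.9 to 59.7, almost all of it from COL1A1, with COL1A2 at 0 in all 6 libraries and DCN at or near 0. Endothelial markers summed to at most 4.04 and immune markers to at most 0.625 in any library. Mitochondrial genes took 6.12% to 7.76% of the counts in sh-NC and 5.24% to 5.89% in sh-IGF2BP3 libraries, and the part of this in the results was not tested. Libraries also differed in how counts related to the GC content of a gene. The slope was taken on each gene's deviation in log2 CPM from its mean over the 6 libraries. For every 10 percentage points of GC, this deviation moved by -0.23 to -0.05 in sh-NC libraries and by -0.01 to 0.35 in sh-IGF2BP3. Thus the groups did not overlap in this slope. Beside the values of single genes, the log2 fold change is therefore also given with these trends and those with gene length removed. As the slopes separate the groups, this removal can take away differences due to the knockdown as well as technical ones. The 2 cannot be told apart here, so neither value is taken as the truer. In chi-square per degree of freedom over genes, sh-NC replicate 1 was nearer to sh-IGF2BP3 replicate 3 (10.1) than to the other sh-NC libraries (34.2 and 61.5). In turn, sh-IGF2BP3 replicate 3 was nearer to that control than to sh-IGF2BP3 replicate 1 (52.4) and replicate 2 (24.5). These 2 libraries were thus nearer to each other than to their own groups. Results that rest on sh-NC replicate 1 are given with and without it.

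Across these 9 genes no common direction was seen between the groups. Without the correction for GC content and length, the log2 fold changes furthest from 0 were -1.21 for ALDH1L2, -0.48 for PSAT1, 0.38 for SHMT2 and 0.35 for SHMT1. With it they were -0.86 for ALDH1L2, 0.49 for MTHFD1, -0.33 for PSAT1 and 0.30 for SHMT1, and SHMT2 was at 0.11. None of the 9 passed an adjusted p of 0.05 with a fold change above 1.5 in edgeR's quasi-likelihood test, higher or lower, and 0% of all genes tested did so in either direction. At an unadjusted p of 0.05, 2 of 9 were lower (PSAT1 and ALDH1L2) against 8.54% of all genes tested, and 0 of 9 were higher against 13.6%. Groups did not overlap in CPM for 1 gene that was higher (SHMT1) and 1 that was lower (PSAT1), against 13.2% and 11% of all genes tested. The median log2 fold change of the 9 genes was -0.03, and that of all genes tested was -0.01. With DESeq2, 0 of 9 genes were called higher and 0 lower at the same limits, against 4.29% and 1.05% of the genes it tested. These are bulk libraries, in which fewer cells of a type and less RNA per cell cannot be told apart.

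**Figure D1:**
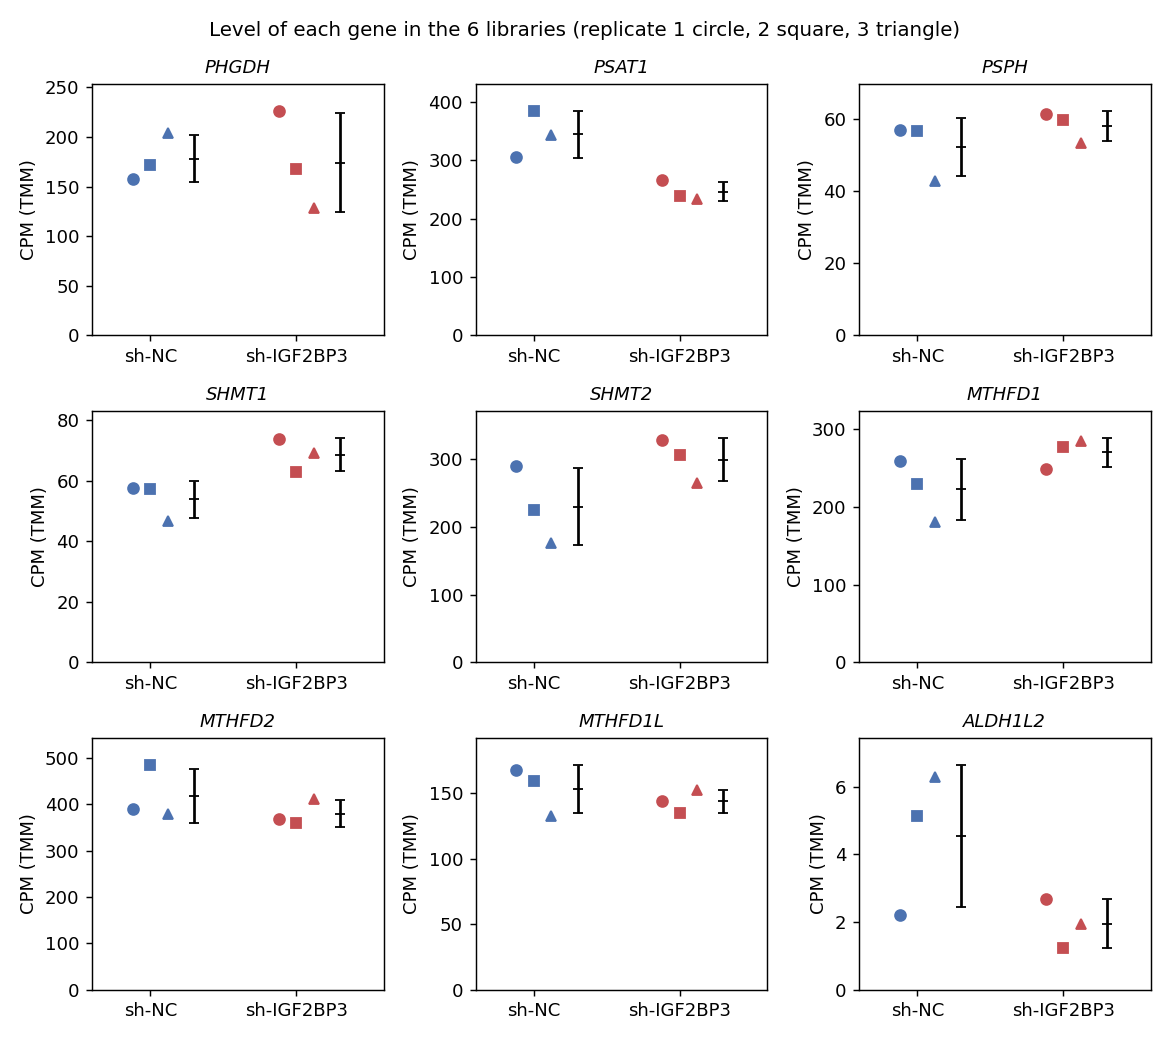
CPM with TMM scaling of each of the 9 genes on a linear axis from 0, with sh-NC libraries in blue, sh-IGF2BP3 libraries in red, and the mean and SD of 3 libraries in black. The 3 sh-IGF2BP3 points lie below every sh-NC point for PSAT1 and above every one for SHMT1, and the groups overlap for the other 7 genes.

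Promoters of PSAT1 and SHMT1 are shown because these were the only genes of the 9 whose groups did not overlap in CPM without the trends removed. That of MTHFD1L is shown because it was the only one of the 6 promoters matched that held the core letters of the C/EBP-ATF response element, through which ATF4 acts. These promoters are taken from RefSeq on GRCh38.p14, run from 250 bases before to 50 bases after the gene's start, and are written 5′ to 3′ on the gene's strand. The window of PSAT1 lies at chr9:78296875-78297174 on the plus strand, SHMT1 at chr17:18363501-18363800 on the minus strand, and the first of 4 starts of MTHFD1L at chr6:150866236-150866535 on the plus strand. Capitals mark the response element core TGATGNAA and the GC box GGGCGG, which zinc-finger factors of the Sp family bind, on either strand, and the matches do not overlap each other.
PSAT1: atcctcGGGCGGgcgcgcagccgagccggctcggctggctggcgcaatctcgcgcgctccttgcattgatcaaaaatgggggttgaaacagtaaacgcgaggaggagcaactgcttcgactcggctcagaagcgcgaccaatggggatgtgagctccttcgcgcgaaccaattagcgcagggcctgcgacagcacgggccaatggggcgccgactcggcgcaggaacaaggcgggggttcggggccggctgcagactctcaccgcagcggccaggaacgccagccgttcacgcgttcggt
SHMT1: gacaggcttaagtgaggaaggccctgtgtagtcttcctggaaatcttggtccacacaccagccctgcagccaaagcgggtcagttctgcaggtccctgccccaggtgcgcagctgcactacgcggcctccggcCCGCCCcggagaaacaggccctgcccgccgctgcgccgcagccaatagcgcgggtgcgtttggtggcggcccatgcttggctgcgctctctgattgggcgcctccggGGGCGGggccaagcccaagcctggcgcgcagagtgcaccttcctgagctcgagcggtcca
MTHFD1L: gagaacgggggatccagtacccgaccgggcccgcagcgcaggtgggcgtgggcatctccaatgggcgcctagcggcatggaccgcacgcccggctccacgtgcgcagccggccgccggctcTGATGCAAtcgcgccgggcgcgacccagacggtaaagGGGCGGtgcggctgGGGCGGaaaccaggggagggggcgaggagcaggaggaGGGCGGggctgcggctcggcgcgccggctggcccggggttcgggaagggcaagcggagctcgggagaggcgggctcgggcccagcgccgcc
A promoter was matched for 6 of the 9 genes, the others being PSPH, SHMT2 and ALDH1L2. The GC box stood 1 time in PSAT1, 2 times in SHMT1, 3 times at the first start of MTHFD1L and 0 times in PHGDH, MTHFD1 and MTHFD2. It stood in 45% of the 35116 promoters searched. The core TGATGNAA stood 129 bases before the first start of MTHFD1L, 90 bases before and 24 bases after 2 of its other starts, was not in the window of the remaining start, and stood in 3.62% of all promoters. The E-box CACGTG, searched as well and left in lower case, stood in the promoters of MTHFD1 and MTHFD1L and in 7.26% of all. GC content was 66% in the PSAT1, 68% in the SHMT1 and 76.7% in the MTHFD1L promoter, where the median promoter had 58.7%. These matches describe letters and do not show that a factor binds there.

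Serine synthesis begins with PHGDH (ENSG00000092621, chr1:119648411-119744218, plus strand), the dehydrogenase that draws 3-phosphoglycerate out of glycolysis. Its CPM were 158, 172 and 204 in sh-NC libraries and 227, 168 and 128 in sh-IGF2BP3. The sh-IGF2BP3 libraries held both the highest and the lowest of the 6 values. The means were 177.9 ± 23.6 and 174.0 ± 49.6 (SD, n = 3 each). The log2 fold change was -0.03 (SE 0.217), with a 95% interval of -0.49 to 0.43 and an edgeR adjusted p of 0.943. It stayed at -0.03 with the trends removed. Of the 9 genes PHGDH was the only one whose coefficient of variation was larger in sh-IGF2BP3 (28.5%) than in sh-NC libraries (13.3%).

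PSAT1 (ENSG00000135069, chr9:78297125-78330093, plus strand), the aminotransferase of the second step, was lower in all 3 sh-IGF2BP3 libraries than in any sh-NC library. Its CPM were 305, 385 and 343 in sh-NC libraries and 265, 239 and 234 in sh-IGF2BP3. The means of 344 ± 40.0 and 246 ± 16.9 (SD, n = 3 each) gave a ratio of 0.715. The log2 fold change was -0.48 (SE 0.184, 95% interval -0.87 to -0.09), which did not pass with an edgeR adjusted p of 0.153. An exact two-sided permutation test on CPM gave p = 0.1, below which this design of 3 and 3 libraries cannot go. PSAT1 is among the more AT-rich of these genes, with a GC content of 42.3% where the median gene tested had 48.7%. With the trends removed its log2 fold change was -0.33 (SE 0.172, edgeR adjusted p 0.522), and the groups then overlapped.

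PSPH (ENSG00000146733, chr7:56011051-56051604, minus strand), the phosphatase that releases free serine, had 56.9, 56.6 and 42.8 CPM in sh-NC libraries and 61.2, 59.7 and 53.4 in sh-IGF2BP3. Its groups overlapped, and the low value of sh-NC replicate 3 stood apart from the other 5 libraries. The log2 fold change was 0.16 (SE 0.187, 95% interval -0.24 to 0.55), and 0.09 with the trends removed. Without sh-NC replicate 3 it was 0.01. PHGDH, PSAT1 and PSPH overlap no other gene of the table. PSPHP1, a pseudogene of PSPH, held 23 to 62 counts, and the other 13 pseudogenes named for one of the 9 genes held at most 9 counts in any library.

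The serine hydroxymethyltransferases were both higher on average in sh-IGF2BP3 libraries. SHMT1 (ENSG00000176974, chr17:18327860-18363563, minus strand), the cytosolic form, had 57.7, 57.2 and 46.9 CPM in sh-NC libraries and 73.9, 62.9 and 69.2 in sh-IGF2BP3. Every sh-IGF2BP3 value was above every sh-NC value. Its means were 53.9 ± 6.11 and 68.7 ± 5.53 (SD, n = 3 each), a ratio of 1.27. The log2 fold change of 0.35 (SE 0.181, 95% interval -0.04 to 0.73) did not pass, with an edgeR adjusted p of 0.269 and an exact two-sided permutation p of 0.1. It was 0.30 with the trends removed, and the groups still did not overlap.

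SHMT2 (ENSG00000182199, chr12:57229573-57234935, plus strand), the mitochondrial form, had 289.7, 225 and 176 CPM in sh-NC libraries and 328, 306 and 265 in sh-IGF2BP3. Only sh-NC replicate 1 reached into the range of the sh-IGF2BP3 libraries. The means were 230.3 ± 57.0 and 299.9 ± 32.1 (SD, n = 3 each), a ratio of 1.30, and the log2 fold change was 0.38 (SE 0.208, 95% interval -0.06 to 0.82, edgeR adjusted p 0.294). SHMT2 has the highest GC content of the 9 genes, 57.0%, and its log2 fold change was 0.11 with the trends removed. Without sh-NC replicate 1, it was 0.58 with an edgeR adjusted p of 0.0609, and without sh-NC replicate 3 it was 0.20 with an adjusted p of 0.734.

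MTHFD2 (ENSG00000065911, chr2:74186172-74217565, plus strand), the mitochondrial dehydrogenase and cyclohydrolase of dividing cells, had 389.7, 485 and 379 CPM in sh-NC libraries and 368, 359 and 412 in sh-IGF2BP3. The groups overlapped, with sh-NC replicate 2 above the other 5 libraries. Its log2 fold change was -0.14 (SE 0.188, 95% interval -0.54 to 0.26, edgeR adjusted p 0.691). MTHFD2 has the lowest GC content of the 9 genes, 41.4%, and a length of 11443 bases. With the trends with GC content and length removed, its log2 fold change turned to 0.20 (SE 0.173, edgeR adjusted p 0.687). Its groups then did not overlap, with the sh-IGF2BP3 libraries higher. Which of the 2 trends turned it was not tested. The direction for MTHFD2 therefore rests on that correction.

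MTHFD1L (ENSG00000120254, chr6:150865679-151101887, plus strand), the mitochondrial ligase that releases formate, had 168, 159 and 133 CPM in sh-NC libraries and 144, 135 and 153 in sh-IGF2BP3. These ranges overlapped, and the lowest of the 6 values was in sh-NC replicate 3. The log2 fold change was -0.09 (SE 0.180, 95% interval -0.47 to 0.29), and -0.16 with the trends removed. It ran from -0.21 without sh-NC replicate 3 to -0.02 without sh-NC replicate 1.

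ALDH1L2 (ENSG00000136010, chr12:105019784-105107643, minus strand), the mitochondrial enzyme that oxidizes formyl-folate to carbon dioxide while making NADPH, had the lowest FPKM of the 9 and the log2 fold change furthest from 0. ALDH1L2 had 39, 124 and 123 counts in sh-NC libraries and 47, 19 and 34 counts in sh-IGF2BP3, or 2.20, 5.12 and 6.28 CPM against 2.69, 1.24 and 1.93 CPM. Replicates 2 and 3 of sh-NC were high and the other 4 libraries low, so that sh-NC replicate 1 lay inside the sh-IGF2BP3 range. The means were 4.54 ± 2.10 and 1.95 ± 0.723 (SD, n = 3 each), a ratio of 0.431. The log2 fold change was -1.21 (SE 0.415, 95% interval -2.09 to -0.33), with an edgeR adjusted p of 0.130 and an exact two-sided permutation p of 0.2. It was -0.86 with the trends removed (edgeR adjusted p 0.478). Without sh-NC replicate 1 the log2 fold change was -1.53 and passed both limits, with an edgeR adjusted p of 0.00857. In that fit 1739 genes were called higher and 985 lower of 17379 fitted, so the pass is not particular to ALDH1L2. With any other library left out ALDH1L2 did not pass, and without sh-NC replicate 3 its log2 fold change was -0.93 (edgeR adjusted p 0.423). On the opposite strand NOPCHAP1 covers 61.9% of the ALDH1L2 gene and held 549 to 1163 counts, more than ALDH1L2 in every library. As the use of strand in counting is not given in the sources used here, reads of the pair may not have been told apart.

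MTHFD1 (ENSG00000100714, chr14:64388031-64463457, plus strand), the cytosolic enzyme that joins several folate activities in a single protein, had 258, 229 and 180 CPM in sh-NC libraries and 249, 277 and 284 in sh-IGF2BP3. The groups overlapped through sh-NC replicate 1, which was above sh-IGF2BP3 replicate 1. The means of 222 ± 39.5 and 269.9 ± 18.6 (SD, n = 3 each) gave a ratio of 1.21. Its log2 fold change was 0.28 (SE 0.192, 95% interval -0.13 to 0.69, edgeR adjusted p 0.400). Without sh-NC replicate 1 it was 0.40 (edgeR adjusted p 0.179), and without sh-NC replicate 3 it was 0.13 (edgeR adjusted p 0.838). With all 6 libraries and the trends removed it was 0.49 (SE 0.211, edgeR adjusted p 0.469). In that fit MTHFD1 was the only gene of the 9 higher at an unadjusted p of 0.05, against 6.86% of all genes tested, and 0 of 9 were lower, against 3.59%. ZBTB25, on the opposite strand, covers 19% of MTHFD1 and held 249 to 768 counts.

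**Figure D2:**
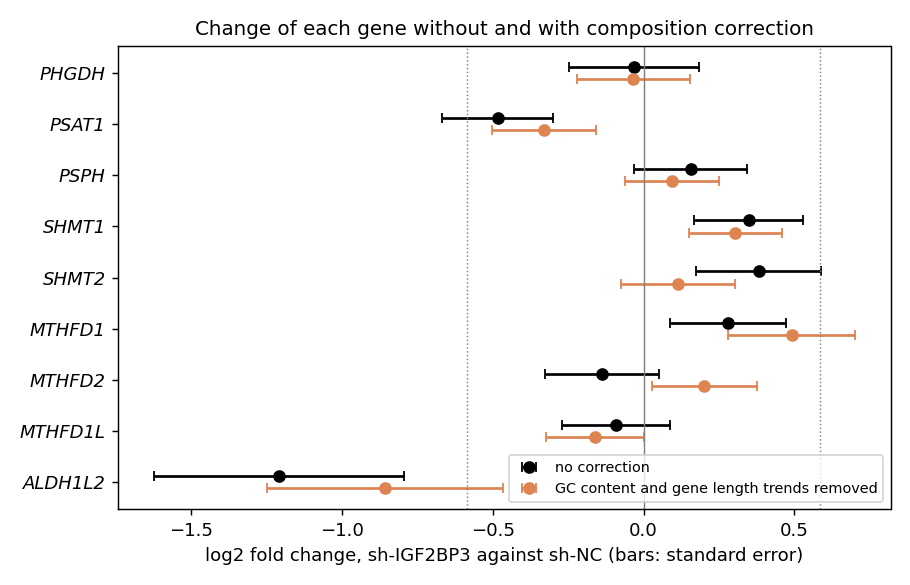
Log2 fold change of each gene, sh-IGF2BP3 against sh-NC, from edgeR without (black) and with (orange) removal of the trends with GC content and gene length; bars are standard errors and dotted lines mark a fold change of 1.5. PSAT1 and ALDH1L2 lie below 0 and SHMT1, SHMT2 and MTHFD1 above 0 in both, while MTHFD2 moves from -0.14 to 0.20.

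Levels were compared between genes as FPKM, which divides a count by the library's total and by the gene length the authors used. PSAT1 had the highest FPKM, with a mean of 134 ± 33.1 over the 6 libraries (SD) and a range from 102 to 179. This was 2.35 times the mean of SHMT2. SHMT2 followed with 57.2 ± 10.4 FPKM, above MTHFD2 in 6 of 6 libraries. MTHFD2 (34.8 ± 4.79 FPKM) and MTHFD1L (30.3 ± 2.64 FPKM) were near each other, with MTHFD2 higher in 5 of 6 libraries. PSPH (19.8 ± 1.85 FPKM) and PHGDH (19.2 ± 4.47 FPKM) did not differ beyond their spread, with PSPH higher in 4 of 6. PHGDH in turn was above MTHFD1 (14.1 ± 1.55 FPKM) in 5 of 6 libraries. SHMT1 had 8.69 ± 1.18 FPKM and ALDH1L2 0.351 ± 0.235 FPKM, each below the gene before it in 6 of 6 libraries. The lengths behind these values run from 2206 bases for PSAT1 to 17357 for MTHFD1, with 11443 for MTHFD2 and 4891 for MTHFD1L. The order rests on them, since no other lengths were tried. The same lengths entered the removal of the trends, so values with the trends removed rest on them as well. In CPM, which takes no account of length, MTHFD2 was above PSAT1 and MTHFD1 was above MTHFD1L in every library.

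The balance between enzymes of neighbouring steps was followed by ratios of FPKM within a library, of which 8 were computed. The height of a ratio rests on the same gene lengths, while its comparison between libraries does not. PSAT1 to PSPH was 6.70, 8.51 and 10.03 in sh-NC libraries and 5.43, 5.02 and 5.48 in sh-IGF2BP3. MTHFD1L to MTHFD1, the mitochondrial against the cytosolic enzyme of formate handling, was 2.31, 2.47 and 2.61 against 2.05, 1.73 and 1.91. MTHFD2 to MTHFD1 was 2.29, 3.21 and 3.19 against 2.24, 1.97 and 2.20. Each of these 3 ratios was lower in every sh-IGF2BP3 library than in any sh-NC library, and the sh-IGF2BP3 mean was 0.631, 0.770 and 0.738 of the sh-NC mean, in the order given. The exact two-sided permutation p was 0.1 for each (0.267 after Benjamini-Hochberg adjustment over the 8 ratios), so none passed. MTHFD1L to MTHFD1 and MTHFD2 to MTHFD1 share a denominator and are not independent. Groups did not overlap in CPM for 13.2% (higher) and 11% (lower) of all single genes tested, and the share over other gene pairs was not computed. PSAT1 to PHGDH was 8.03, 9.33 and 6.99 against 4.88, 5.94 and 7.61, and MTHFD2 to SHMT2 was 0.540, 0.864 and 0.863 against 0.449, 0.470 and 0.624, both overlapping (exact permutation p = 0.2, adjusted 0.32). SHMT2 to SHMT1, the mitochondrial against the cytosolic form, was 6.48 ± 1.05 in sh-NC libraries and 6.69 ± 0.803 in sh-IGF2BP3 (SD, n = 3 each), with an exact permutation p of 0.9. PHGDH to PSPH and MTHFD2 to MTHFD1L overlapped as well, with exact permutation p of 0.6 and 0.7. The genes of the 3 lower ratios differ in GC content, which is 42.3% for PSAT1 and 49.8% for PSPH, and 41.4%, 51.9% and 47.6% for MTHFD2, MTHFD1L and MTHFD1. After removal of the trends with GC content and length, an alternative chosen after the data were seen, MTHFD1L to MTHFD1 was still lower in every sh-IGF2BP3 library, and the groups overlapped for PSAT1 to PSPH and MTHFD2 to MTHFD1. In the same setting MTHFD2 to MTHFD1L was higher in every sh-IGF2BP3 library than in any sh-NC library, where the uncorrected groups overlapped.

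**Figure D3:**
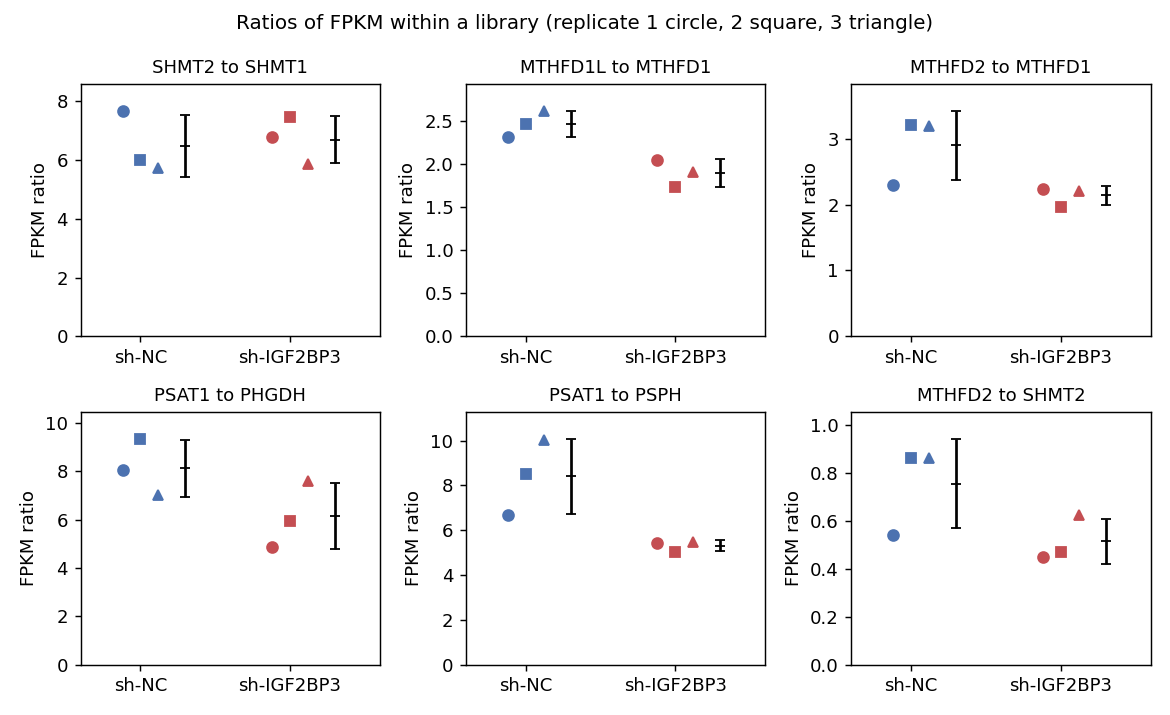
Ratios of FPKM between 2 genes of the same library on linear axes from 0, with sh-NC in blue, sh-IGF2BP3 in red, and the mean and SD of 3 libraries in black. The groups do not overlap for MTHFD1L to MTHFD1, MTHFD2 to MTHFD1 and PSAT1 to PSPH, and they overlap for SHMT2 to SHMT1, PSAT1 to PHGDH and MTHFD2 to SHMT2.

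Around the 9 genes, 57 genes of 7 lists cover the carriers, the other folate enzymes, the pathways that use serine or one-carbon units, and ATF4 with its stress response genes. Of these, 50 were tested and 0 passed the adjusted limits, with a lowest edgeR adjusted p of 0.103. At an unadjusted p of 0.05, 7 were higher and 4 lower, together 22% of the 50 where 22.2% of all genes tested were below that limit. Their median log2 fold change was 0.02.

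Folate and serine carriers had 3 of 9 tested genes higher at an unadjusted p of 0.05 and 0 lower, where 13.6% of all genes tested were higher and 8.54% lower. With the trends removed 1 was higher and 0 lower, against 6.86% and 3.59% of all genes tested. The median log2 fold change turned from 0.09 to -0.03. SLC19A1, the reduced folate carrier of the plasma membrane, had 87.7, 61.8 and 44.4 CPM in sh-NC libraries and 124, 115 and 113 in sh-IGF2BP3, with no overlap. On the log2 scale it differed by 0.86 (edgeR adjusted p 0.103), and by 0.47 with the trends removed, where the groups overlapped. COL18A1, on the opposite strand over 25.3% of SLC19A1, held 1228 to 3149 counts. The CPM of COL18A1 were 69.9, 54.6 and 62.7 in sh-NC libraries and 179.7, 127 and 69.6 in sh-IGF2BP3. SLC25A32, the mitochondrial folate carrier, had a log2 fold change of 2.65 (SE 0.608, edgeR adjusted p 0.103) and 2.87 with the trends removed, the largest of the named genes. Its values were low, with 1.92, 0.537 and 0.664 CPM in sh-NC libraries and 8.18, 9.81 and 1.36 CPM in sh-IGF2BP3, and sh-IGF2BP3 replicate 3 lay inside the sh-NC range. A same-strand gene, ENSG00000285982, covers 99.9% of SLC25A32, so its count is uncertain. SLC1A5, a neutral amino acid transporter, had a log2 fold change of 0.45 (edgeR adjusted p 0.220) that was -0.03 with the trends removed.

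Other folate enzymes had 1 of 9 tested genes higher at an unadjusted p of 0.05 and 0 lower, against 13.6% and 8.54% of all genes tested. The higher gene was FPGS, which adds glutamates to folate and keeps it in the cell. FPGS had 65.1, 50.4 and 37.8 CPM in sh-NC libraries and 87.8, 80.7 and 65.2 in sh-IGF2BP3. Its log2 fold change of 0.61 (edgeR adjusted p 0.137) was 0.08 with the trends removed. In the methionine cycle and transsulfuration, 2 of 10 tested genes were lower at an unadjusted p of 0.05 and 0 were higher, beside the same 8.54% and 13.6% of all genes. The median log2 fold change was -0.20, and with the trends removed it was -0.08, with 2 genes lower and 1 higher. In that fit 3.59% of all genes tested were lower and 6.86% higher. AHCYL2, a relative of the enzyme that breaks down S-adenosylhomocysteine, had a log2 fold change of -0.60 (edgeR adjusted p 0.127) and -0.42 with the trends removed. CTH, which makes cysteine from cystathionine, had 17.0, 17.0 and 21.0 CPM in sh-NC libraries and 11.4, 12.2 and 13.3 in sh-IGF2BP3, with no overlap. For CTH the log2 fold change was -0.58 (edgeR adjusted p 0.159), and -0.46 with the trends removed. CBS, the enzyme before CTH, had counts at or near 0 in all 6 libraries and was not tested. How reads that match several places were counted is not given in the sources used here. Its low count therefore need not mean a low level.

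Purine ring synthesis had 1 of 6 tested genes higher at an unadjusted p of 0.05 and 0 lower, against 13.6% and 8.54% of all genes tested. The higher gene was PFAS, with a log2 fold change of 0.47 (edgeR adjusted p 0.212). PFAS catalyses an amidation step that uses glutamine, and its value was 0.21 with the trends removed. Among the other serine users 1 of 5 tested genes was higher at this limit and 0 lower, beside the same shares of all genes. It was SDSL, a serine dehydratase-like enzyme, with 7.17, 5.00 and 4.85 CPM in sh-NC libraries and 13.0, 12.7 and 8.80 in sh-IGF2BP3. Its groups did not overlap, and its log2 fold change was 1.02 (edgeR adjusted p 0.103) and 0.52 with the trends removed. None of the 3 tested genes of the glycine cleavage system reached an unadjusted p of 0.05, and the smallest was that of GCSH, its hydrogen carrier protein, with a log2 fold change of 0.15 and 0.34 with the trends removed. GCSH lies almost wholly inside 2 same-strand genes, so its count is uncertain.

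ATF4 and its stress response genes did not move one way. ATF4, the transcription factor of the integrated stress response, had 452, 489 and 357 CPM in sh-NC libraries and 659, 592 and 425 in sh-IGF2BP3, with overlap. Its log2 fold change was 0.37 (edgeR adjusted p 0.317), and 0.04 with the trends removed. CEBPG, which pairs with ATF4, had 82.4, 97.9 and 86.2 CPM in sh-NC libraries and 56.8, 64.2 and 62.8 in sh-IGF2BP3. The groups of CEBPG did not overlap, and its log2 fold change was -0.54 (edgeR adjusted p 0.124) and -0.39 with the trends removed. ASNS, asparagine synthetase, had 12.5, 19.5 and 22.0 CPM against 12.6, 10.7 and 9.94, a log2 fold change of -0.70 (edgeR adjusted p 0.142) and -0.60 with the trends removed, and lies inside a same-strand gene that held 24 to 47 counts. CEBPB, another factor of this response, had 20.4, 18.7 and 13.8 CPM in sh-NC libraries and 72.6, 39.2 and 17.5 in sh-IGF2BP3. Its sh-IGF2BP3 replicate 3 lay inside the sh-NC range. The log2 fold change of CEBPB was 1.29 (edgeR adjusted p 0.103), and 0.51 with the trends removed. Of the 8 genes, 1 was higher and 2 were lower at an unadjusted p of 0.05, against 13.6% and 8.54% of all genes tested. With the trends removed 0 were higher and 2 lower (ASNS and CEBPG), against 6.86% and 3.59% of all genes tested. The median of the 8 genes was 0.13, and -0.33 with the trends removed. Besides those of the ATF4 genes and the carriers, the medians of glycine cleavage (-0.06 to 0.19) and purine ring synthesis (-0.07 to 0.13) also changed sign with the correction.

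**Figure D4:**
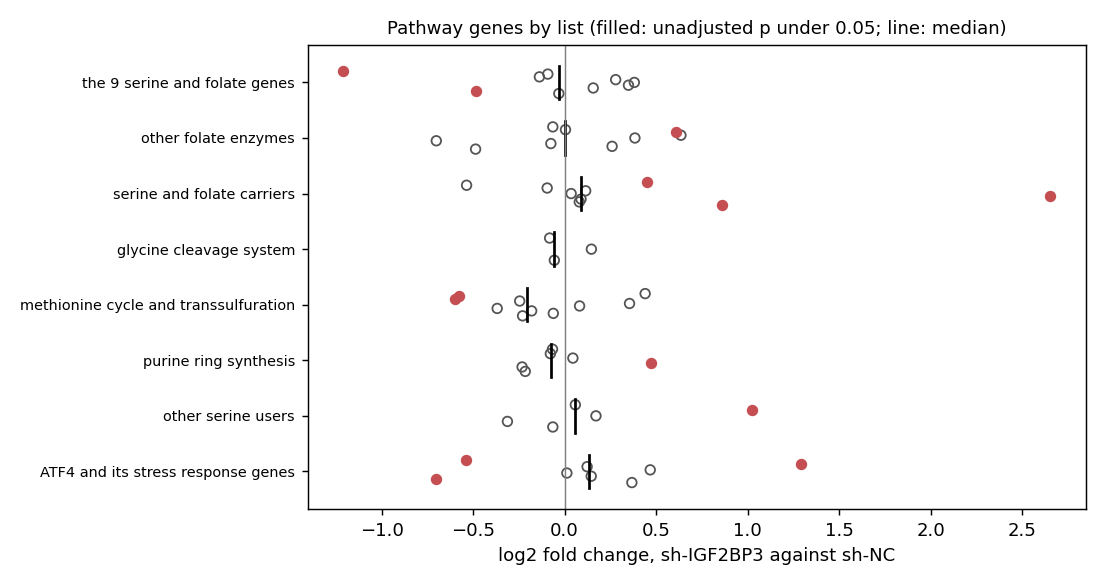
Log2 fold change of each tested gene, sh-IGF2BP3 against sh-NC, for the 9 genes and the 7 lists around them; filled points have an unadjusted p under 0.05 and vertical lines are medians. List medians run from -0.20 (methionine cycle and transsulfuration) to 0.13 (ATF4 and its stress response genes), with genes on both sides of 0 in every list.

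The 9 genes as a set hardly separated the groups. Their mean deviation in log2 CPM from each gene's own mean was -0.0004, 0.15 and -0.04 in sh-NC libraries and 0.10, -0.12 and -0.08 in sh-IGF2BP3 libraries, with the highest value in sh-NC replicate 2 and the lowest in sh-IGF2BP3 replicate 2. ALDH1L2, the gene with the fewest counts, weighs most in this mean, with deviations of 0.85 and -1.10 in those libraries. The median deviation was instead highest in sh-NC replicate 1 (0.06) and lowest in sh-NC replicate 3 (-0.16). Among the other genes tested, those whose log2 CPM followed the profile of the mean most closely over the 6 libraries were CA2 (Pearson r 0.990), SENP8 (0.982), SH2B3 (0.978), NAV2 (0.973) and CAST (0.971). These were picked from all tested genes for their likeness and are given as a description.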

How the data were processed

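RNA of HCT116 cells was measured in 6 libraries, 3 sh-NC and 3 sh-IGF2BP3, from total RNA extracted with Trizol and prepared with a TruSeq RNA kit. The authors deposited raw counts per gene and FPKM for 62710 genes; the submitters' processing notes name CASAVA and GRCh38, while trimming, aligner, counter and use of strand are not given in the sources used here. The deposited FPKM equal the count divided by the library total and by 1 length per gene. Libraries were grouped by their labels and held 16146718 to 23576469 counts. Counts were fitted in R 4.3.3 with edgeR 4.0.16 (filterByExpr, TMM, glmQLFTest) and no covariate, with Benjamini-Hochberg adjustment over all 16753 genes tested. A gene was called at an adjusted p of 0.05 and a fold change above 1.5, the study's limits. CPM carried TMM factors, log2 CPM a prior count of 2. Single values were compared by exact two-sided permutation over the 20 assignments of libraries.

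GC content and length trends were removed per library by splines (5 degrees of freedom). GC content was that of the longest GENCODE 29 transcript, and length was the one implied by the deposited counts and FPKM. Both were known for 96.9% of tested genes. Other settings were DESeq2 1.42.0, limma 3.58.1 on log2(FPKM + 1) and log2(FPKM + 0.1) with a filter at a mean FPKM of 1 and on log2(FPKM + 1) without it, RLE and upper-quartile scaling, no filter, at least 10 counts in every library, a replicate block, any fold change, and each library left out. The fits were tested on simulated data. Members and lists were chosen with earlier results of these data known. Named genes are the 9, IGF2BP3, ATF4, genes of a list with an unadjusted p under 0.05 (at most 4 a list, else the smallest p), and the 5 most alike in profile.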

Additional observations from a re-analysis of the deposited data

How the results depend on the processing

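Of all genes tested, 0 were called higher and 0 lower in edgeR. DESeq2 called 562 higher and 137 lower of 13087 genes. Without the filter on low counts, edgeR called 687 and 150 of 36335. RLE scaling and the minimum of 10 counts gave 1 higher each, and limma on log2(FPKM + 1) gave 1 lower. With a library left out, 0 to 1739 genes were called higher and 0 to 985 lower. The most were called without sh-NC replicate 1, where 17379 genes were fitted. At an unadjusted p of 0.05 edgeR had 2283 genes higher and 1431 lower. Among the 9 genes, 1 was called lower, ALDH1L2, without the filter (-1.19, adjusted p 0.0493) and without sh-NC replicate 1 (-1.53), and 0 to 1 were with a library left out. None was called higher under any setting run. The median log2 fold change of the 9 genes was 0.0939 with the trends removed, 0.11 with the trends removed and a replicate block, and ran from -0.0882 to 0.14 with a library left out, the highest without sh-IGF2BP3 replicate 3. MTHFD2 turned to 0.20 with the trends removed and 0.21 with the block added. PHGDH turned to 0.05 without sh-NC replicate 3, 0.0018 without sh-IGF2BP3 replicate 2 and 0.14 without sh-IGF2BP3 replicate 3, and ran down to -0.26 without sh-IGF2BP3 replicate 1. The cause of these turns was not tested. PSAT1 ran from -0.56 to -0.33 (edgeR, DESeq2 or limma adjusted p 0.0571 to 0.809), SHMT1 from 0.24 to 0.41, SHMT2 from 0.11 to 0.58 and MTHFD1 from 0.13 to 0.53, each in 1 direction under all 17 other settings. PSPH ran from 0.01 to 0.23 and MTHFD1L from -0.21 to -0.02. ALDH1L2 kept its direction in 15, from -1.53 to -0.31 (limma without the filter, adjusted p 0.503), and could not be fitted by limma with the FPKM filter. The replicate block left 0 genes called higher, 0 lower and 0 of the 9 genes called. Same-numbered libraries correlated at -0.284, -0.186 and -0.043 in their deviations from group means, and other combinations ran from -0.258 to 0.323. As the deviations come from means of only 3 libraries, they cannot settle whether libraries were paired. The paper speaks of 3 pairs of control and knockdown cells and does not say how they were matched. Low counts limit ALDH1L2, and 3 libraries a group limit every test.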
